A study of Mus musculus with 24 samples.

Results

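The PI3K-related protein kinases are 6 very large proteins encoded in the mouse by Prkdc, Atm, Atr, Mtor, Trrap and Smg1, and their transcripts were followed here across 8 groups of Neuro2A cells. The members were the rows of the deposited count table that carry these symbols, 6 of 39253 genes, and all 6 were above the filter on low counts (0.5 CPM, counts per 1000000, or more in 3 or more samples), which left 13901 genes to test.

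The family takes its name from the resemblance of its kinase domain to that of the lipid phosphatidylinositol 3-kinases, but its active members phosphorylate serine and threonine in proteins. ATM, ATR and the DNA-dependent kinase encoded by Prkdc are called to broken or unreplicated DNA, mTOR couples growth to nutrients, and SMG1 marks the helicase UPF1 during nonsense-mediated decay of mRNAs with an early stop codon. TRRAP has lost the catalytic residues and serves as the scaffold of histone acetyltransferase complexes, and all of them depend on the TTT and R2TP co-chaperones to fold and assemble.

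Neuro2A is a mouse neuroblastoma line that the labels give as wild-type, and each group had 3 samples that the series describes as independent biological replicates. In 6 groups the cells were transfected with plasmids for RfxCas13d, HiFi-RfxCas13d (a high-fidelity variant, RfxCas13d-N2V7) or DiCas7-11, RNA-cutting CRISPR effectors, together with a crRNA against mouse ataxin-2 (mATXN2) or a non-targeted crRNA (NTG), and were harvested 48 hr later. The other groups were untransfected cells and a positive control that received an antisense oligonucleotide (ASO) against ataxin-2, whose dose and delivery are not given in the sources used here. The transfections were transient, so a sample can mix cells that took up plasmid with cells that did not. The column names of the deposited table read EV and G12 where the labels read NTG and G10. It is therefore uncertain which construct the control arm and which guide the mATXN2 arm were given. NTG is used here after the labels.

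Expected counts, in units of 1000000, summed to 12.7 to 19.9 per sample outside the ASO group and to 21.9 to 22.5 in the ASO group, so depth and ASO treatment cannot be told apart. The members held between 467 (Prkdc) and 5406 (Trrap) expected counts in a sample. Of 11 markers of neuroblastoma and neurons, 7 had a median of at least 1 CPM, with Hand2 at 384 CPM, while Nefl and Nefm were near 0. Summed markers of astrocytes, leukocytes and epithelium never exceeded 0.556 CPM. The oligodendrocyte sum was 13.8 to 18.8 CPM, with Mog at a median of 0, the endothelial sum 5.79 to 10.0, from Pecam1 with Cdh5 at a median of 0, and the fibroblast sum 5.20 to 9.06, mostly Pdgfrb. This fibroblast sum was 8.46 to 9.06 CPM in untransfected and 5.55 to 7.03 CPM in ASO samples. Sample pairs within a group differed by 1.67 to 2.63 times the sampling noise (chi-square per degree of freedom), except in the DiCas7-11 NTG group, where the 3 pairs gave 3.47 to 5.91. The members' called DiCas7-11 values are therefore followed by what leaving out a sample gave, which was not computed for the values of other genes. The label check on the target itself gave Atxn2 at 123 ± 1.78 CPM (SD, n = 3) in untransfected and 51.9 ± 2.77 in ASO-treated cells, a log2 fold change of -1.25. With mATXN2 crRNA against NTG, Atxn2 fell by 0.23 with HiFi-RfxCas13d and by 0.20 with DiCas7-11 on the log2 scale (adjusted p = 0.00157 and 0.00557), and with RfxCas13d the value was -0.10 (adjusted p = 0.178).

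Promoters from RefSeq (GRCm38.p6, 250 bases before to 50 after the start) were at hand for 5 of the 6 members, and not for Prkdc. The 5 at hand are all shown. Capitals mark matches, on either strand, to the GC box (GGGCGG), the CCAAT box (CCAAT), the ETS core (CCGGAAG) and the E-box (CACGTG).
Trrap, chr5:144768544-144768843, plus strand: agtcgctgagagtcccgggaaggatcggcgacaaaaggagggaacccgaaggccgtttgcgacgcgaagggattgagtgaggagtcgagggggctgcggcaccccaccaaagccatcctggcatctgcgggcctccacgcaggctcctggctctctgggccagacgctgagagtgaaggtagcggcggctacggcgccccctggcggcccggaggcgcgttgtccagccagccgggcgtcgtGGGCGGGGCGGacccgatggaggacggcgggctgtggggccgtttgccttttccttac
Mtor, chr4:148448332-148448631, plus strand: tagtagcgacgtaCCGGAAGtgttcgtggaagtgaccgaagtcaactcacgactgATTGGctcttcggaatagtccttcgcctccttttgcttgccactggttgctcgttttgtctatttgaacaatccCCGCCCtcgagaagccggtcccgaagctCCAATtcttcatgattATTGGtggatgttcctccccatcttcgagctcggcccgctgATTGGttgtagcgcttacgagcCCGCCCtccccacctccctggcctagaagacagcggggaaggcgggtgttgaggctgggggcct
Smg1, chr7:118243588-118243887, minus strand: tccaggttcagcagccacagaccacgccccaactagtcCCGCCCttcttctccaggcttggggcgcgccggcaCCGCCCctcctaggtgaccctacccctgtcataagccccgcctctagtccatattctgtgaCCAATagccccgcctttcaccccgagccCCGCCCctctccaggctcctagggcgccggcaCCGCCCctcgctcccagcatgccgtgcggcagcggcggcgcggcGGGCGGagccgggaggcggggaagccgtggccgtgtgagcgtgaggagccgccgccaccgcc
Atm, chr9:53536622-53536921, minus strand: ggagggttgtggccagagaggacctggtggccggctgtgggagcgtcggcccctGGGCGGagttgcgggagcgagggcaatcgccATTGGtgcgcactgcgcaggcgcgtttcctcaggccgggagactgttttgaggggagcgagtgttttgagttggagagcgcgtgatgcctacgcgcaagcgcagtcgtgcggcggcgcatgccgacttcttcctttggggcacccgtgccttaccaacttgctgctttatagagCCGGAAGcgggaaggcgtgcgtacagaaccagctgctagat
Atr, chr9:95857347-95857646, plus strand: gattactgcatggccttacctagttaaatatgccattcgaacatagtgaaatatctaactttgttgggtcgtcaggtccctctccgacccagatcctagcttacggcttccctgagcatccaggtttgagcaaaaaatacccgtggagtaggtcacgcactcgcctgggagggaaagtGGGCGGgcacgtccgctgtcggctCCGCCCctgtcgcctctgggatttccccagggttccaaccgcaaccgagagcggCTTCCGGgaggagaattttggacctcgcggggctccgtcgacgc
All of these promoters hold a GC box, which 35.7% of 32851 promoters of the same length hold. Smg1 had 5 copies and was the richest in G and C (72%), whereas Trrap had 2 that overlap by 1 base, Mtor 2, Atr 2 and Atm 1. Mtor alone of the 5 had several CCAAT boxes, 4 of them, against 1 in Smg1, 1 in Atm and none in Trrap or Atr, and 37.4% of all promoters had at least 1. The ETS core was found in Mtor, Atm and Atr (8.86% of all promoters) and not in Trrap or Smg1, and none of the 5 held the E-box (7.15%). Trrap, Mtor and Smg1 had only the GC box in common among these motifs.

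Corrected for coding length, Trrap was the most abundant member and Prkdc the least. In untransfected cells, the level per kilobase of coding sequence was 15.2 ± 1.17 CPM for Trrap (SD, n = 3 here and below), 13.2 ± 0.469 for Atr, 13.0 ± 0.693 for Mtor, 11.9 ± 0.713 for Smg1, 8.23 ± 0.133 for Atm and 3.35 ± 0.188 for Prkdc. Atr and Mtor overlapped in this order, and so did Mtor and Smg1, whereas Trrap, Atm and Prkdc each stood clear of their neighbours. Coding lengths ran from 7647 bases (2549 residues, Mtor) to 12384 bases (4128 residues, Prkdc), against a median of 1416 bases over the tested genes, taken from GENCODE M21, which annotates GRCm38, whereas the authors used GRCm39.

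**Figure D1:**
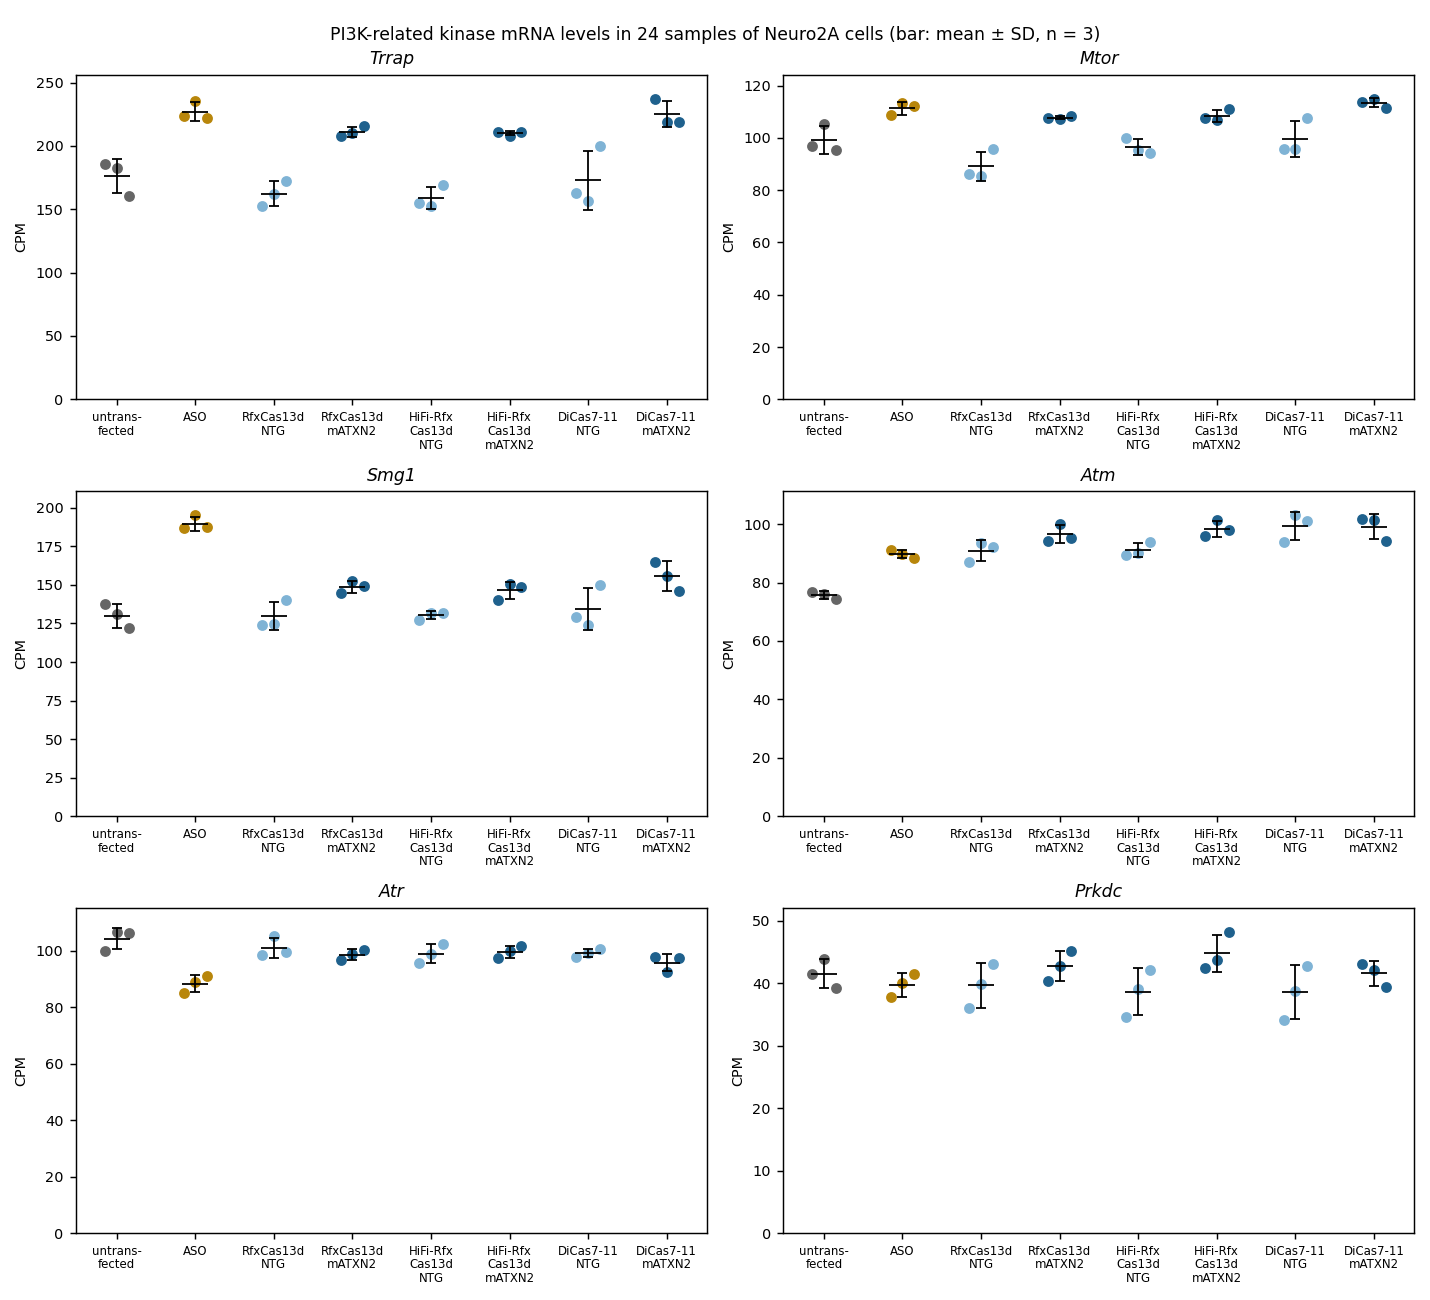
Level of each kinase transcript in CPM (counts per 1000000, linear axes from 0) in the 24 samples, by group. Each point is a sample and the bars give the mean and SD of 3. Trrap sits between 208 and 237 CPM in the 9 mATXN2 samples and between 152 and 199.7 CPM in the 9 NTG samples.

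Across the 8 groups, 5 of the 6 transcripts differed (edgeR quasi-likelihood test with Benjamini-Hochberg adjustment over all tested genes), in a series in which 50.3% of tested genes did. Smg1 had the widest range of group means, 1.46-fold from lowest to highest, and the range was 1.43-fold for Trrap, 1.31-fold for Atm, 1.27-fold for Mtor, 1.18-fold for Atr and 1.16-fold for Prkdc. Prkdc was the member that did not pass (adjusted p = 0.136). As these are bulk samples, fewer cells expressing a transcript and less of it per cell cannot be told apart.

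The first comparison asks what the ataxin-2 crRNA did relative to NTG with each effector. Trrap rose with all 3 effectors, by 29.9% to 32.2%, and Mtor rose with RfxCas13d and DiCas7-11. Smg1 passed in the average over the effectors but with none of them singly, and Atm, Atr and Prkdc did not pass. With RfxCas13d, 2 of 6 members were called, where 1.39% of all tested genes were. With HiFi-RfxCas13d it was 1 of 6 against 0.295%, and with DiCas7-11 2 of 6 against 0.942%. That last share rests on 131 genes, which became 605 without DiCas7-11 NTG replicate 1 and 16 without NTG replicate 2. The 193 genes called with RfxCas13d became 43 without mATXN2 replicate 3, and the 41 with HiFi-RfxCas13d became 21 without NTG replicate 2. Of 157 other genes at least as long as Mtor in coding bases, 21.7%, 15.3% and 20.4% were called with RfxCas13d, HiFi-RfxCas13d and DiCas7-11.

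Trrap, the acetyltransferase scaffold, was at 152, 162 and 172 CPM in the RfxCas13d NTG samples and at 208, 210.2 and 215 CPM with mATXN2 crRNA. With HiFi-RfxCas13d the NTG samples were at 155, 152 and 169 CPM and the mATXN2 samples at 211, 208 and 211. With DiCas7-11 the values were 163, 157 and 199.7 CPM against 237, 219 and 219. In no effector did the groups overlap, although the third DiCas7-11 NTG sample stood well above its companions. The log2 fold changes were 0.38 ± 0.061 (SE), 0.40 ± 0.061 and 0.38 ± 0.060, that is 29.9%, 32.2% and 30.2% (adjusted p = 9.92e-04, 6.68e-04 and 0.00155 from edgeR). Without each DiCas7-11 sample in turn, the DiCas7-11 value ran from 0.31 to 0.50 and kept its call, but it did not pass when only the 6 DiCas7-11 samples were fitted (adjusted p = 0.0638).

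Mtor, the nutrient-sensing kinase, was tightly held in the targeting arms, at 108, 107 and 108 CPM with RfxCas13d against 86.2, 85.5 and 95.6 with NTG. With HiFi-RfxCas13d it was at 107, 107 and 111 CPM against 99.9, 95.3 and 94.4, and with DiCas7-11 at 114, 115 and 112 against 95.7, 95.7 and 108. All 3 pairs of groups were separate, the DiCas7-11 pair by the narrowest margin. The log2 fold changes were 0.27 ± 0.045 (adjusted p = 0.00116), 0.17 ± 0.044 (0.117) and 0.19 ± 0.044 (0.0298). With HiFi-RfxCas13d, Mtor passed by limma-trend (adjusted p = 0.00786), by DESeq2 (0.0291) and with only the samples compared (0.0206), and did not with the replicate block (0.0808). In edgeR it also did not pass with corrections for coding length (0.08, adjusted p = 0.671) or GC content (0.16, 0.138), described below. The DiCas7-11 call for Mtor was lost without NTG replicate 2, without any 1 of the 3 mATXN2 replicates, and when only the 6 samples were fitted (adjusted p = 0.213). It was also lost in edgeR with the GC correction (0.16, adjusted p = 0.119). Without NTG replicate 3 the log2 fold change was 0.25.

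Smg1, the nonsense-mediated decay kinase, was at 124, 124 and 140.3 CPM with NTG and 144, 152 and 149 with mATXN2 crRNA in the RfxCas13d arm. The HiFi-RfxCas13d values were 127, 132 and 132 CPM against 140.2, 151 and 149, and those for DiCas7-11 were 129, 124 and 149.7 against 165, 156 and 146. The groups were separate with both Cas13 forms and overlapped with DiCas7-11, where NTG replicate 3 was higher than mATXN2 replicate 3. The log2 fold changes of 0.19 ± 0.055, 0.17 ± 0.054 and 0.21 ± 0.054 did not pass (adjusted p = 0.0725, 0.308 and 0.0521 from edgeR). By limma-trend with 10 comparisons adjusted together, an approximation of the study's procedure on the genes tested here, all 3 passed (0.0110, 0.0337 and 0.00603). In edgeR the Smg1 value passed with RfxCas13d without NTG replicate 3, and with DiCas7-11 without NTG replicate 3 or mATXN2 replicate 3, where leaving out a sample gave 0.16 to 0.30.

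None of the DNA damage kinases passed. Atm, the sensor of double-strand breaks, had log2 fold changes of 0.09, 0.11 and -0.01, and Atr, which responds to single-stranded DNA, of -0.03, 0.01 and -0.05, in the order RfxCas13d, HiFi-RfxCas13d and DiCas7-11. Prkdc, the catalytic subunit of DNA-PK in end joining, gave 0.10, 0.22 and 0.10 with SEs of 0.074 to 0.076, the widest of the family. The 95% intervals for Atr, from -0.12 to 0.08 over the 3 effectors, lay below the Trrap values, while the interval of Prkdc reached 0.37 with HiFi-RfxCas13d. Counting samples rather than tests, mATXN2 lay wholly above NTG for 4 of 6 members with RfxCas13d (10.3% of all genes), for 5 with HiFi-RfxCas13d (6.97%) and for 2 with DiCas7-11 (7.25%), and wholly below it for 1, Atr with DiCas7-11 (7.22%).

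Averaged over the 3 effectors, Trrap rose by 0.39 ± 0.035 (log2, adjusted p = 1.90e-08), Mtor by 0.21 ± 0.025 (2.96e-06) and Smg1 by 0.19 ± 0.032 (2.66e-04). Prkdc was at 0.14 ± 0.044 (0.0577, against 0.0323 by DESeq2 and 0.0474 by limma-trend), Atm at 0.06 ± 0.023 (0.106) and Atr at -0.02 ± 0.021 (0.601). So 3 of 6 members were called, all higher, where 5.19% of tested genes were called and 2.95% were called higher. The median of the 6 was 0.17 against -0.0011 over all genes. Among 157 other tested genes with at least as many coding bases as Mtor, 51.0% were called, with a median of 0.14. The share of members called was near that of these long genes. These averages use the samples of the separate comparisons and are not further evidence for them. The calls of Trrap, Mtor and Smg1 held without any 1 of the 18 samples.

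The 3 effectors were also set against each other directly. In none of the 3 contrasts was a member called, and edgeR called 0 genes in all, limma-trend 0, and DESeq2 0, 3 and 3, while 855, 1084 and 1028 genes had an unadjusted edgeR p under 0.05. For Trrap the difference in response was 0.03 (95% interval -0.15 to 0.20) for HiFi-RfxCas13d against RfxCas13d, 0.0041 (-0.17 to 0.18) for DiCas7-11 against RfxCas13d and -0.02 (-0.20 to 0.15) for DiCas7-11 against HiFi-RfxCas13d. For Mtor they were -0.10 (-0.23 to 0.03), -0.08 (-0.21 to 0.04) and 0.02 (-0.11 to 0.14). A call for Mtor with one effector but not with another was not shown to be a difference between them.

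**Figure D2:**
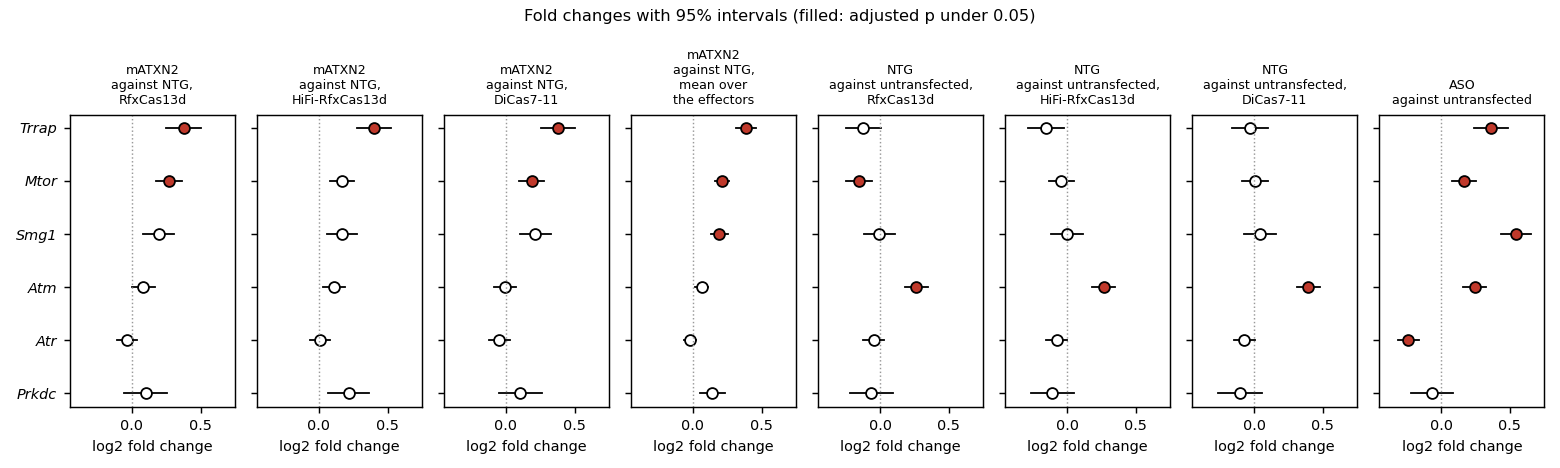
Log2 fold change of each kinase (rows) in 8 comparisons (panels), with 95% intervals as lines. Filled points passed an adjusted p of 0.05. Trrap is filled in all 4 mATXN2 panels, at 0.38 to 0.40, and Atm is filled in all 3 panels of NTG against untransfected.

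Long transcripts as a class were higher in the mATXN2 samples. The 157 other tested genes with at least as many coding bases as Mtor (7647) had median log2 fold changes of 0.11, 0.16 and 0.13 with RfxCas13d, HiFi-RfxCas13d and DiCas7-11. Of these, 34, 24 and 32 were called higher and none lower, or 21.7%, 15.3% and 20.4% of the class. In the average over effectors 79 were higher and 1 lower, 51.0% of the class, and the median was 0.14. In the 9 NTG samples the class median lay between -0.11 and 0.11 relative to untransfected cells, and only DiCas7-11 NTG replicate 3, the sample high for Trrap, Mtor and Smg1, was above 0. In the 9 mATXN2 samples it lay between 0.06 and 0.14. After each library was corrected for its own trend on coding length, Trrap kept its call with every effector, at 0.24, 0.26 and 0.25 (adjusted p = 8.38e-04, 6.17e-04 and 0.00111). Mtor kept it with RfxCas13d (0.20, adjusted p = 0.00688) and lost it with DiCas7-11 (0.11, 0.148). With HiFi-RfxCas13d, where Mtor had not passed, it was at 0.08 (adjusted p = 0.671). In the average over effectors, Smg1 lost its call (0.06, 0.0928) and Atr fell by 0.11 (adjusted p = 0.00436). Both verdicts turned with length and GC corrected together, a setting chosen after seeing the data, where Smg1 was called (0.08, adjusted p = 0.0338) and Atr was not (-0.07, 0.103). The part that RNA quality or library preparation had in this class shift was not tested.

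**Figure D3:**
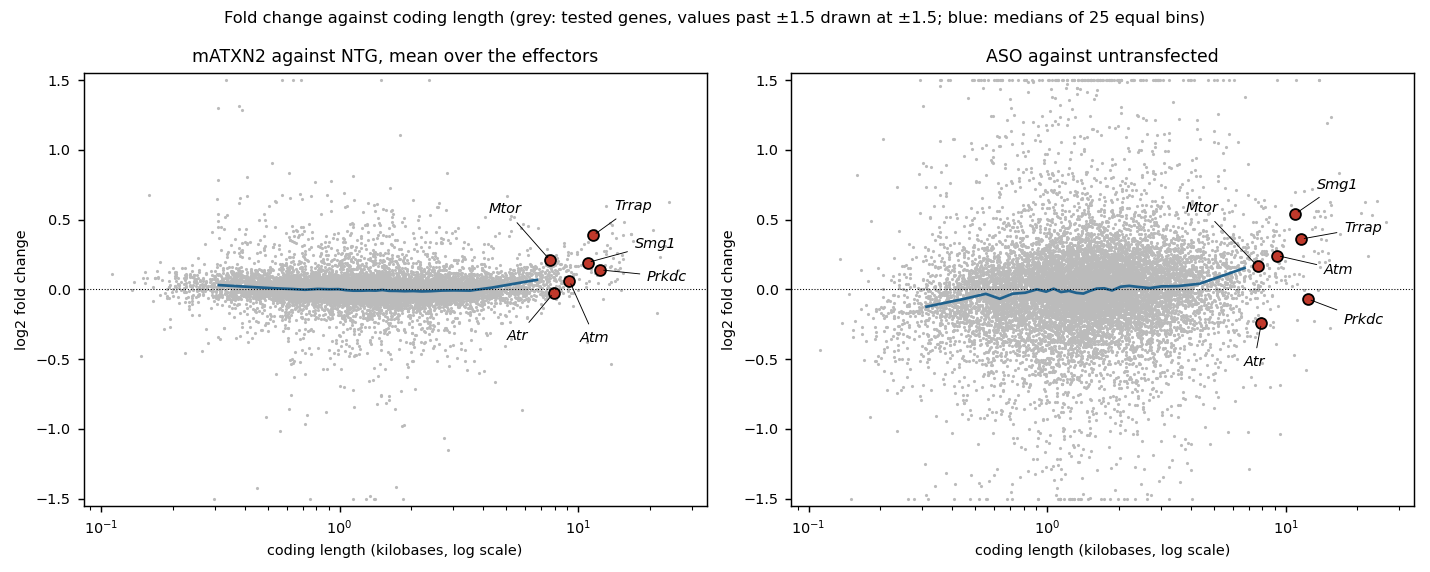
Log2 fold change against coding length (log scale) for 12128 tested genes with a known length, for the mATXN2 average (left) and ASO (right). The blue lines are medians of 25 bins of equal size and rise at the longest genes, where all 6 kinases (red) lie. Trrap is above the line in both panels and Atr below it.

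The second comparison asks what transfection with an effector and NTG did relative to untransfected cells. Here Atm moved and the rest of the family mostly did not. Atm was at 76.7, 76.1 and 74.3 CPM in untransfected cells. It was at 86.9, 93.7 and 92.2 CPM with RfxCas13d NTG, at 89.5, 90.0 and 93.8 with HiFi-RfxCas13d NTG and at 94.0, 103 and 101 with DiCas7-11 NTG. Every transfected sample was above every untransfected one, and the DiCas7-11 samples were above those of both other effectors, the lowest by a narrow margin. Atm rose by 0.26 ± 0.041, 0.27 ± 0.041 and 0.39 ± 0.041 (log2, adjusted p = 5.63e-05, 2.83e-05 and 5.50e-08), in comparisons that share the untransfected samples with each other and the NTG samples with the crRNA comparisons. Groups as separate as these, with the transfected samples higher, were seen for 13.9%, 17.6% and 15.5% of tested genes. After the coding length correction Atm was at 0.31, 0.30 and 0.41 and still called, and the 3 calls held without any 1 sample.

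Beside Atm, Mtor fell by 0.15 ± 0.046 with RfxCas13d NTG (adjusted p = 0.0274), although 95.6 CPM in NTG replicate 3 overlapped the untransfected range of 95.3 to 105 CPM. This call for Mtor was lost without untransfected replicate 2, without NTG replicate 1 or without NTG replicate 2 (adjusted p up to 0.213). So 2, 1 and 1 members were called with RfxCas13d, HiFi-RfxCas13d and DiCas7-11, against 11.3%, 21% and 21.9% of tested genes. Trrap was at -0.12, -0.15 and -0.03 and did not pass (adjusted p = 0.233, 0.0813 and 0.786), Smg1 was at -0.0043, 8.26e-04 and 0.04, and Atr and Prkdc lay between -0.11 and -0.04. Trrap was at 185, 183 and 161 CPM in untransfected cells, a range that overlapped each NTG group and lay below every mATXN2 sample.

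The third comparison is between ASO-treated and untransfected cells, the pair of groups for which the labels name no effector. It shares the untransfected samples with the NTG comparisons. The series has no mock-treated group and no control oligonucleotide. Lowering of ataxin-2 and effects of the oligonucleotide or its delivery therefore cannot be told apart here. Smg1 showed the largest change of the family and Trrap the next, Atm and Mtor rose less, and Atr fell. In all, 4 members rose and 1 fell, against 42.7% of tested genes called, so a call here is common. The 21% of genes called higher and 21.7% called lower in this comparison are the background for the 4 and the 1. The ASO samples lay wholly above the untransfected ones for those 4 members (25.8% of tested genes) and wholly below for Atr (26.1%).

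Smg1 was at 138, 131 and 122 CPM in untransfected and 187, 195 and 187 CPM in ASO-treated cells, the highest 3 values of the series for this transcript. It rose by 0.54 ± 0.053 (log2, adjusted p = 2.14e-09), and by 0.32 after the coding length correction (2.83e-08). Trrap was at 223, 236 and 222 CPM and rose by 0.36 ± 0.059 (1.37e-05), or 0.12 after the correction (0.00800). Mtor was at 109, 113 and 112 CPM against 96.9, 105 and 95.3 and rose by 0.17 ± 0.043 (0.00252). Atm was at 91.1, 89.6 and 88.3 CPM and rose by 0.24 ± 0.040 (1.31e-05). Neither of these was called after the correction, with Mtor at 0.02 (0.730) and Atm at 0.06 (0.262).

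Atr went the other way. Its untransfected samples were at 100.1, 107 and 106 CPM and the ASO samples at 85.1, 89.1 and 91.1, the lowest 3 of all 24. It fell by 0.24 ± 0.036 (adjusted p = 4.06e-06), and by 0.39 after the coding length correction (2.69e-09). Prkdc was at 41.4, 43.9 and 39.2 CPM against 37.7, 40.1 and 41.4, overlapping groups with a log2 fold change of -0.07 ± 0.074 (0.488), which became -0.32 and passed after the correction (6.39e-05). The 157 other long genes had a median of 0.25 in this comparison, with 97 called higher and 9 lower. Smg1 and Trrap were above that median, and Atm, Mtor, Prkdc and Atr below it. The effector samples and the ASO samples were not tested against each other here.

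Companion genes of each kinase were taken from lists of known partners. Their counts are to be read against the shares of all tested genes called. With ASO these were 21% higher and 21.7% lower (42.7% in all). For NTG against untransfected cells they were 11.3%, 21% and 21.9% in either direction with RfxCas13d, HiFi-RfxCas13d and DiCas7-11. For mATXN2 against NTG they were 1.39%, 0.295% and 0.942% in the same order, and 5.19% in the average. A short list with none called in a crRNA comparison is near these last shares. In the mTOR complexes (7 of 8 listed genes tested) nothing was called in any crRNA or NTG comparison. Mtor itself was called with RfxCas13d and DiCas7-11 crRNA, in the average over effectors and with RfxCas13d NTG, and not in the others. Averaged over effectors, Rptor, the raptor subunit of complex 1, was at 0.05 (edgeR adjusted p = 0.0979), Rictor of complex 2 at 0.02 and Mlst8, common to both, at 0.02. With ASO, 3 of the 7 rose and none fell, a number called near the 42.7% of all genes. Rictor rose by 0.34, Akt1s1, which encodes the complex 1 inhibitor PRAS40, by 0.30 and Rptor by 0.14.

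TRRAP is shared by the NuA4/TIP60 and SAGA acetyltransferase complexes, of which 25 genes were tested. With mATXN2 crRNA the only one called with a single effector was Ep400, the ATPase of TIP60 and itself a very long gene. It rose by 0.29, 0.27 and 0.24 with the 3 effectors (edgeR adjusted p = 4.06e-04, 0.00203 and 0.00470), from 116, 116 and 124 CPM to 142, 139 and 146 CPM on average. In the mean over effectors Ep400 rose by 0.27, and Kat2b (-0.08), an acetyltransferase of SAGA-type complexes, and Morf4l1 (-0.06), a chromodomain subunit, fell. The catalytic subunit Kat5 was at 0.02 and not called, and the list's median was -0.0049. With ASO, 9 of the 25 rose and 5 fell, the falls near the 21.7% of all genes, with Epc1 (0.44), Ep400 (0.28) and Sgf29 (0.27) the largest rises and Supt3 (-0.25) the largest fall. In NTG against untransfected cells, 3, 8 and 8 rose and 1, 2 and 2 fell in the order RfxCas13d, HiFi-RfxCas13d and DiCas7-11. Epc1, a TIP60 scaffold subunit, rose with HiFi-RfxCas13d (0.28) and DiCas7-11 (0.26).

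Of 9 genes of the SMG1 complex and nonsense-mediated decay, none was called in any crRNA comparison. That is near the shares of all genes called, 0.295% to 1.39% with an effector and 5.19% in the average. In the crRNA comparisons Smg8 and Smg9, the SMG1-binding subunits, lay between -0.07 and 0.06. With ASO, 6 rose and none fell, among them Smg5 (0.32) and Smg6 (0.27), which act on phosphorylated UPF1, and Smg8 rose by 0.16. In NTG against untransfected cells 2, 4 and 6 rose and none fell, with Smg5 at 0.10, 0.12 and 0.11. Of 9 transcripts that this pathway removes, 6 rose and 1 fell with ASO. Snhg12 (0.99), Ddit3 (0.77) and Atf3 (0.47) rose and Gadd45b (-0.37) fell, while with mATXN2 crRNA Snhg1 was the only one called, with RfxCas13d (0.21) and in the mean over effectors (0.10). In NTG against untransfected cells 1, 3 and 1 of them rose and none fell with RfxCas13d, HiFi-RfxCas13d and DiCas7-11. Atf3 rose with each effector, and Snhg12 and Ddit3 with HiFi-RfxCas13d.

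Among the DNA damage partners none of the 9 ATM partners, 12 ATR partners or 9 end-joining genes was called in a crRNA comparison. This too is near the shares of all genes, 0.295% to 1.39% with an effector and 5.19% in the average. In NTG against untransfected cells, in the same order of effectors, 0, 1 and 3 of the ATM partners rose and none fell, 0, 1 and 3 of the ATR partners rose and 1, 0 and 0 fell, and 0, 1 and 1 of the end-joining genes rose and as many fell. Nbn of the MRN complex that brings ATM to breaks rose with HiFi-RfxCas13d (0.27) and DiCas7-11 (0.32), and was at 0.21 with RfxCas13d (adjusted p = 0.0588). Its fellow subunits Mre11a and Rad50 lay between -0.06 and 0.07 and were not called. Xrcc6, a Ku subunit that holds DNA-PK on DNA ends, fell with HiFi-RfxCas13d (-0.10) and DiCas7-11 (-0.16), and Lig4, the end-joining ligase, rose with both (0.17 and 0.20). Chek1, the kinase downstream of ATR, rose with the same pair (0.22 and 0.21). The others called were Atmin (0.21), Rnf168 (0.17), Clspn (0.16) and Rad17 (0.14), which rose with DiCas7-11, and Rpa3 (-0.19), which fell with RfxCas13d.

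With ASO, 2 of the 9 ATM partners rose and 2 fell, among them Rad50 (-0.11), and the same counts held for the end-joining genes, where Xrcc5 rose by 0.16 and Xrcc6 fell by 0.14. The share called in both lists was thus near the 42.7% of all genes. Of the 12 ATR partners 3 rose and 2 fell, with Chek1 at 0.21 and Rpa3, a subunit of the single-strand binding protein, at -0.25, while Atrip, the partner that brings ATR to single-stranded DNA, was at 0.15 and not called. Of 9 genes listed for assembly of the kinases by the co-chaperones, Wac and Nop58 among them, none was called in a crRNA comparison. Telo2 was at 0.11, Tti1 at 0.05 and Tti2 at 0.03 in the mean over effectors. With ASO, 3 rose and none fell, namely Tti2 (0.21), Wac and Nop58. In NTG against untransfected cells 3, 3 and 2 rose and 0, 0 and 1 fell with RfxCas13d, HiFi-RfxCas13d and DiCas7-11. Wac and Nop58 rose with each effector there.

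**Figure D4:**
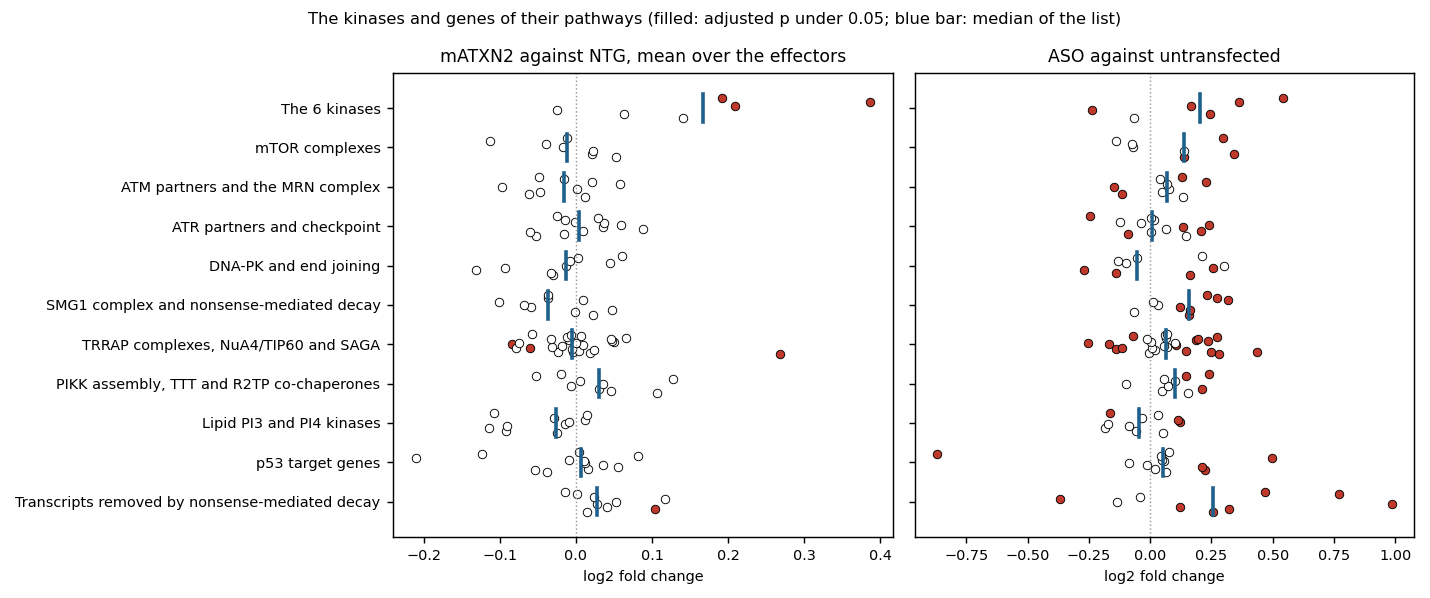
Log2 fold changes of the 6 kinases and of the genes in 10 companion lists (points, a row per list), for the mATXN2 average (left) and ASO (right, wider axis). Filled points passed an adjusted p of 0.05 and blue bars are list medians. On the left the kinases have a median of 0.17 and the filled points elsewhere are Ep400, Kat2b, Morf4l1 and Snhg1.

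Likeness over the 24 samples is given as correlations of log2 CPM, as a description, since the samples share groups, depth and length effects. Trrap went with Mtor (Pearson's r = 0.90) and Smg1 (0.86), Mtor went with Smg1 (0.77), and Atr ran against Smg1 (-0.76). Prkdc and Atm were at most 0.53 with any other member. Among 10912 genes with a mean count of at least 50, the transcript most like Trrap was Ep400 (0.98), followed by Srrm2 (0.97), which was also second for Mtor (0.91) after Prrc2a (0.92). Smg1 was most like Kmt2a (0.97) and Vps13d (0.95), Atm like Acaca (0.90) and Polr1b (0.88), Atr like Top2a (0.90) and Etfrf1 (0.89), and Prkdc like Rfx3 (0.84) and Myh10 (0.80). By Spearman's rho the first gene was another for Trrap (Macf1, 0.96), Mtor (Plec, 0.93), Atr (Rps6ka3, 0.86) and Prkdc (Tnks, 0.84), and again Kmt2a for Smg1 (0.92) and Acaca for Atm (0.90).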

How the data were processed

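RNA was measured in 24 Neuro2A samples, 8 groups of 3. Per the labels and the study's methods, the authors sequenced stranded poly(A) libraries as single-end reads, quantified them with Salmon 1.5.2 against a GRCm39 transcriptome with sequence and GC bias correction, and deposited length-scaled expected counts per gene (R 4.2.2). Here the expected counts were rounded and fitted in 1 model of all samples with edgeR 4.0.16 (R 4.3.3). The fit used TMM scaling, the quasi-likelihood test and Benjamini-Hochberg adjustment within a comparison, with a threshold of 0.05. Genes that reached 0.5 CPM (counts per 1000000) in 3 or more samples were kept. CPM used the plain total for the filter and the cell type markers, and the TMM-adjusted total for all other levels. DESeq2 1.42.0 and limma 3.58.1 were alternatives, as were other scalings and filters, a replicate block, leaving out each sample, and lowess corrections (span 0.3) on coding length and GC content. Only the main edgeR fit was tested on simulated data, for RfxCas13d mATXN2 against NTG. No sample column was left unused. Columns reading EV and G12 were mapped to groups labelled NTG and G10 by the rest of their names.

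The members and gene lists were chosen with earlier results of these data known. Named genes are the members, Atxn2, 16 direct partners, at most 4 other called genes per list and comparison, and the 2 genes most like each member (Pearson's r, mean count of at least 50). Some listed genes are not reported here by name.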

Additional observations from a re-analysis of the deposited data

How the results depend on the processing

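Of the 1188 alternative values (members' fold changes and counts of members called), some of them under 2 settings with a GC correction that were chosen after seeing the data, 1041 kept their direction and side of the threshold, 62 passed it, 35 lost it and 50 changed sign, none of these 50 past the threshold.

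The number of members called moved by over 1.5 times in these cases. With HiFi-RfxCas13d mATXN2 crRNA, 1 became 4 with every nonzero gene tested, 2 by DESeq2, 3 by limma-trend, 5 with 10 comparisons adjusted together in edgeR and 3 with only the samples compared. With DiCas7-11 crRNA, 2 became 0 with only the samples compared, 1 with each form of the coding length correction (alone, with the replicate block, with GC), and 1 to 3 when a replicate was left out. In the average over effectors 3 became 5 with the GC correction. For NTG against untransfected, RfxCas13d went from 2 to 1 with GC and with length and GC, and 1 to 2 without a replicate. HiFi-RfxCas13d went from 1 to 2 with every nonzero gene, with only the samples compared and with GC, and 1 to 2 without a replicate. DiCas7-11 went from 1 to 2 with GC and with length and GC. The cause was not tested.

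Signs changed as follows, in log2 units. For the crRNA with RfxCas13d, Prkdc was -0.042 with the length correction, -0.039 adding the replicate block and -0.011 adding GC, Atm was -0.017 and -0.018 with length and length with block, and Atr was 0.0049 with GC. With HiFi-RfxCas13d, Atm was -0.0016 and -0.0012 with length and length with block, and Atr was -0.083, -0.083 and -0.068 with length, its block and its GC forms and -0.011 to 0.035 without a replicate. With DiCas7-11, Prkdc was -0.035 and -0.027 with length and length with block, Atm was 0.037 with GC and -0.041 to 0.031 without a replicate, and Atr was 0.010 with GC. In the average, Prkdc was -0.0058 and -0.0022 with length and length with block, Atm was -0.043, -0.043 and -0.014 with the 3 length forms and Atr was 0.013 with GC. For NTG against untransfected with RfxCas13d, Prkdc was 0.0015 with length and -0.13 to 2.5e-04 without a replicate, and Smg1 was 0.055, 0.055 and 0.030 with the 3 length forms and -0.064 to 0.041 without a replicate. With HiFi-RfxCas13d, Mtor was 0.0077 with length and GC and -0.068 to 0.0055 without a replicate, and Smg1 was -4.8e-04 with the replicate block, -0.025 with GC and -0.040 to 0.044 without a replicate. With DiCas7-11, Trrap was 0.0040 with length and GC and -0.15 to 0.043 without a replicate, Mtor -0.055 to 0.053 and Smg1 -0.042 to 0.10.

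Over all genes, the number called ranged from 43 (without RfxCas13d mATXN2 replicate 3) to 707 (limma-trend) around 193 with RfxCas13d crRNA, from 15 (length) to 275 (10 comparisons together) around 41 with HiFi-RfxCas13d, from 1 (only the samples compared) to 643 (10 comparisons together) around 131 with DiCas7-11, and from 380 (length and GC) to 1085 (without DiCas7-11 NTG replicate 1) around 722 in the average. For NTG against untransfected it was 1032 (without RfxCas13d NTG replicate 1) to 1883 around 1565 with RfxCas13d and 1855 (only the samples compared) to 3386 around 3044 with DiCas7-11. The differences between effectors, at 0, reached 84, 72 and 80 with every nonzero gene tested.

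With the replicate block, 2, 1 and 3 members were called in the crRNA comparisons, 4 in their average, 2, 1 and 1 in the NTG comparisons and 5 with ASO. Same-numbered samples correlated at -0.11 to 0.24, not all over 0.1 in any comparison, and at most 1 of 3 samples correlated best with its own number, so the numbers were not taken as pairs. Prkdc had the fewest counts and the widest intervals of the members.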

Other observations

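Of 10 tested lipid phosphatidylinositol kinases, whose catalytic domain the family resembles, none was called in any mATXN2 comparison by edgeR. Of all genes, 0.295% to 1.39% were called there with an effector and 5.19% in the average. Pik3cd, the delta catalytic subunit, fell in all 3 comparisons of NTG against untransfected cells (-0.29, -0.30 and -0.26, which share the untransfected samples), and Pi4kb rose with DiCas7-11 NTG (0.19). With ASO, where 42.7% of all genes were called, Pik3c3 (0.12) and Pi4ka (0.11) rose and Pi4k2b (-0.17) fell.

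Of 12 tested target genes of p53, a protein that ATM and ATR act on, none was called in any mATXN2 comparison. The shares of all genes called there were 0.295% to 1.39% with an effector and 5.19% in the average. With ASO, 3 rose and 1 fell, against 21% and 21.7% of all genes: Trp53inp1 (0.50), Mdm2 (0.22) and Bax (0.21) rose and Btg2 (-0.87) fell. In NTG against untransfected cells, 1 rose with each effector and 0, 3 and 2 fell with RfxCas13d, HiFi-RfxCas13d and DiCas7-11, where 11.3%, 21% and 21.9% of all genes were called. The gene that rose was Mdm2, the ubiquitin ligase of p53 (0.19, 0.23 and 0.13). Btg2 (-0.45 and -0.52) and Cdkn1a (-0.15 and -0.24) fell with HiFi-RfxCas13d and DiCas7-11, and Sesn1 (-0.21) with HiFi-RfxCas13d.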
